A study of Rattus norvegicus with 16 samples.

Results

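Collagens are the main fibre-forming proteins of the extracellular matrix, and each chain is the product of its own gene. The genes described here are the 42 collagen chain genes that carry a standard symbol (Col, the type number, a and the chain number) in both deposited count tables, out of 19709 gene names the tables share. Col17a1 was left out by the rule. Col6a3 stood in the PND540 table only, so it is no member and is given once, on its own. The members were grouped as 11 fibrillar chains, 8 chains of basement membrane, 8 chains of networks and beaded filaments, and 15 others, among them the chains that decorate fibrils, span membranes or form anchoring fibrils. They were measured by RNA sequencing of the ventral prostate of rats, an androgen-dependent gland that secretes into the seminal fluid. The CTR group comprised offspring of dams fed a normal diet (17% protein) and the GLLP group offspring of dams on a low protein diet (6%) during gestation and lactation. Glands were collected at postnatal day (PND) 21 from 4 CTR and 3 GLLP offspring and at PND540 from 5 CTR and 4 GLLP offspring. The labels name no strain, sire or litter. Litter mates may therefore be among the samples, and every p-value reflects only the spread of these libraries.

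A collagen molecule is a triple helix of chains, which can be copies of a single chain or the products of different genes. The chains are hydroxylated, glycosylated and folded in the endoplasmic reticulum, exported as procollagen, trimmed by propeptidases outside the cell and cross-linked. In the prostate, fibroblasts and smooth muscle cells make most of the fibrillar collagen between the ducts, while the type IV chains form the sheet on which the epithelium and the vessels rest.

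Depth ran from 28748604 to 39161666 counts per library. No library was a copy of another: over genes, replicate pairs gave chi-square values of 30.3 to 829 for each degree of freedom. CTR replicate 5 at PND540 stood apart, with a median correlation of 0.877 with the other libraries of its day, against 0.962 to 0.974 for those others. The prostate secretion genes Pbsn, Scgb2a1, Scgb1d2 and Msmb together stood at 12510 to 77060 CPM (counts scaled to the library's depth) in every library. Scgb1d2 and Scgb2a1 made up most of this sum. Pbsn had 93.8 to 327.4 CPM at PND21 and 0.0391 to 40.8 CPM at PND540, and Msmb was at 0 in at least 1 CTR library at PND21. All CPM values below are scaled by TMM (trimmed mean of M values, which sets library sizes by the bulk of genes) over the 16 libraries and the shared gene names. They are not corrected for transcript length, so levels are compared within a gene only.

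Collagen transcripts were far less abundant at PND540 than at PND21 on both diets. The 42 genes together took 5948 to 10253 CPM in the 7 libraries of PND21 and 179.5 to 855 CPM in the 9 libraries of PND540, and these ranges did not overlap. In CTR, 37 members had enough counts for the test, and 26 of them fell from PND21 to PND540 while 2 rose (edgeR quasi-likelihood test, Benjamini-Hochberg adjusted p under 0.05). Over all 13510 genes of that comparison, 13.2% fell and 17.3% rose. In GLLP, 36 members were tested, 29 fell and 1 rose, against 17.1% and 19.1% of 13694 genes. The median log2 fold change of the tested members was -2.04 in CTR and -2.61 in GLLP, beside 0.07 and 0.02 for all genes. Without CTR replicate 5 at PND540, 27 members fell and 1 rose, beside 3084 and 3490 of all genes. With library size as the only scaling, 1965 of all genes rose and 2916 fell in GLLP, where the TMM scaling gave 2611 and 2341, and the count of members was 29 lower and 1 higher under both.

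The 2 tables list different sets of gene names, with 28688 entries at PND21 and 24218 at PND540, of which 19709 names are shared, so a difference in counting may be part of every change between days. In a whole gland, fewer cells of a type and less RNA per cell cannot be told apart. Other cell markers moved between the same libraries. The lists are short, and 13.2% of all genes fell and 17.3% rose in CTR, with 17.1% and 19.1% in GLLP. The summed level of 7 fibroblast markers went from 745.3 to 1040 CPM in CTR at PND21 to 95.71 to 538.5 CPM at PND540, and 2 of the 7 fell in CTR and 4 in GLLP. For 6 smooth muscle markers the sums were 2538 to 2896 CPM and then 394 to 1187 CPM in CTR, with 4 of 6 lower in CTR and 5 of 6 in GLLP. All 4 markers of dividing cells fell on both diets, and 2 of 4 luminal epithelial markers rose on both. No marker of these 4 lists was at 0 in any library. Of 8 skeletal muscle markers, all 8 fell in GLLP (median log2 fold change -5.77), while in CTR 1 rose and 1 fell of the 6 tested. Endothelial markers fell in 2 of 4 in CTR and 3 of 4 in GLLP. Adipocyte markers rose in 3 of 4 in GLLP and 0 of 4 in CTR, and T and B cell markers in 3 of 4 in CTR and 1 of 3 in GLLP. The part of these cell types in the collagen values was not tested.

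**Figure D1:**
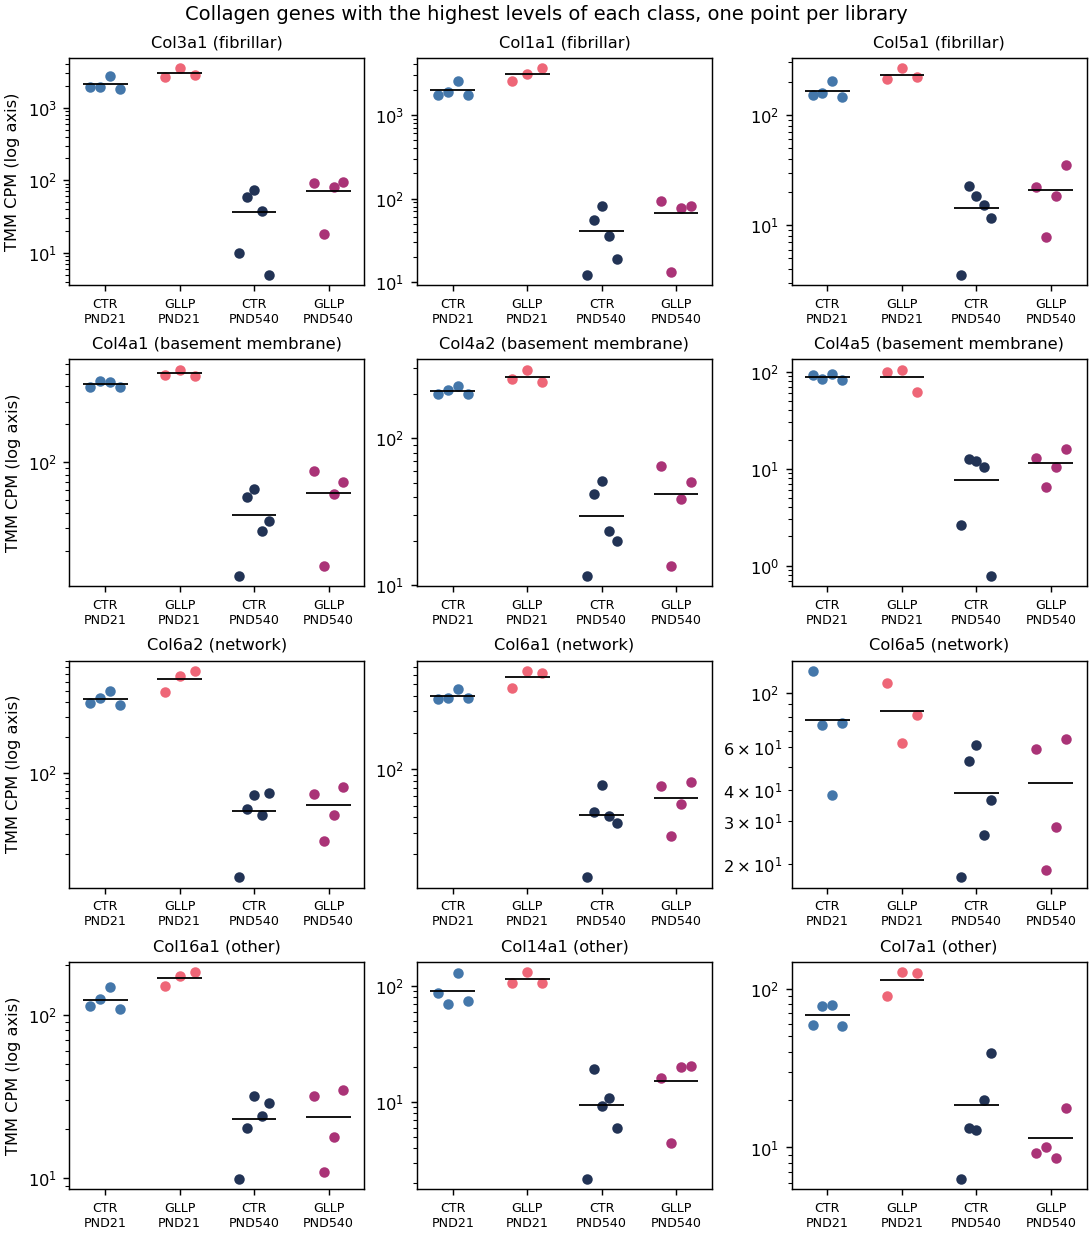
CPM (log axis) of the 3 genes of each class with the highest mean CPM, one point per library, with a line at each group's mean. In 11 of the 12 panels every PND540 library lies below every PND21 library, while the Col6a5 ranges overlap.

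Among the fibrillar chains, which assemble into the banded fibres that bear tension, 7 of 10 tested genes fell in CTR and 9 of 10 in GLLP. Col1a1 encodes the major chain of type I collagen, the most widespread fibre protein. Its level was 1738, 1899, 2531 and 1748 CPM in the CTR libraries at PND21 and 2513, 3052 and 3592 CPM in the GLLP libraries. At PND540 the 5 CTR libraries had 12.3, 54.7, 80.3, 36.0 and 18.9 CPM, and the 4 GLLP libraries 92.6, 13.3, 77.5 and 82.4 CPM. The highest PND540 library, at 92.6 CPM, was far below the lowest PND21 library. The log2 fold change was -5.61 (SE 0.564, edgeR adjusted p = 8.13e-05) in CTR and -5.53 (SE 0.602, adjusted p = 0.000187) in GLLP.

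Col3a1, whose product forms the finer reticular fibres, ran beside it. It stood at 1921, 1961, 2784 and 1826 CPM in CTR and 2664, 3493 and 2861 CPM in GLLP at PND21. The PND540 values were 9.97, 58.1, 74.1, 37.4 and 4.97 CPM in CTR and 90.6, 17.9, 81.4 and 93.4 CPM in GLLP. CTR replicates 1 and 5 and GLLP replicate 2 were the low libraries at that age, as for Col1a1. Col3a1 fell by 5.84 on the log2 scale in CTR (SE 0.779, edgeR adjusted p = 0.000426) and by 5.42 in GLLP (SE 0.536, adjusted p = 0.000113).

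Col5a1 encodes a chain of type V collagen, a minor component that starts and limits the growth of type I fibrils. Libraries of PND21 had 151.7, 158.8, 204.4 and 144.4 CPM in CTR and 210.5, 263.7 and 218.6 CPM in GLLP. Those of PND540 had 3.56, 22.7, 18.2, 15.3 and 11.7 CPM in CTR and 22.3, 7.87, 18.5 and 35.2 CPM in GLLP. The decline was 11.5-fold in CTR (log2 fold change -3.52, SE 0.444) and 11.1-fold in GLLP (-3.47, SE 0.416). Its partner chain Col5a2 changed by -3.83 and -3.64 on the log2 scale, and Col5a3, the third chain of the type, by -2.01 and -1.98. The Col5a3 call in CTR was lost in 6 of the 9 fits that left out a library. Col11a1, a fibril-nucleating chain best known from cartilage, fell by 2.55 and 2.20.

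Other fibrillar genes behaved less alike. Col27a1 fell by 1.79 in CTR and 2.87 in GLLP on the log2 scale. Col24a1 and Col11a2 passed the test in GLLP only, with log2 fold changes of -3.83 and -1.45 there and of -1.95 (edgeR adjusted p = 0.124) and -0.09 (adjusted p = 0.814) in CTR. Without CTR replicate 3 of PND540, Col24a1 was called in CTR too, at -3.36 (SE 0.731, edgeR adjusted p = 0.00922). The diet-by-age test did not call either difference, with an edgeR adjusted p of 0.738 for both. Col2a1, the chain of cartilage fibrils, had 0 to 14 counts per library and was not tested.

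Col1a2 ran opposite to its partner. The gene encodes the second chain of type I collagen, which joins copies of the Col1a1 chain in a shared helix. The PND21 table gave it 1, 2, 3 and 4 counts in the CTR libraries and 3, 3 and 2 in the GLLP libraries, beside 52591 to 117694 counts of Col1a1 there. At PND540 it had 38, 169, 276, 165 and 6 counts in CTR and 177, 14, 203 and 258 in GLLP. As CPM these were 0.0321 to 0.133 at PND21 and 0.235 to 9.40 at PND540, so that every PND540 library was above every PND21 library. The rise passed the test on both diets, with log2 fold changes of 5.67 (SE 1.05, edgeR adjusted p = 0.00271) and 6.06 (SE 1.03, adjusted p = 0.00193). In CTR the gene dropped below the count filter, and was not tested, when any of PND540 replicates 1 to 4 was left out. The count ratio of Col1a2 to Col1a1 was 1.776e-05 to 7.606e-05 at PND21 and 0.0124 to 0.1343 at PND540. A difference in how the 2 tables counted this gene and a difference in its transcript cannot be told apart, and the PND21 values give no usable level of Col1a2.

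**Figure D2:**
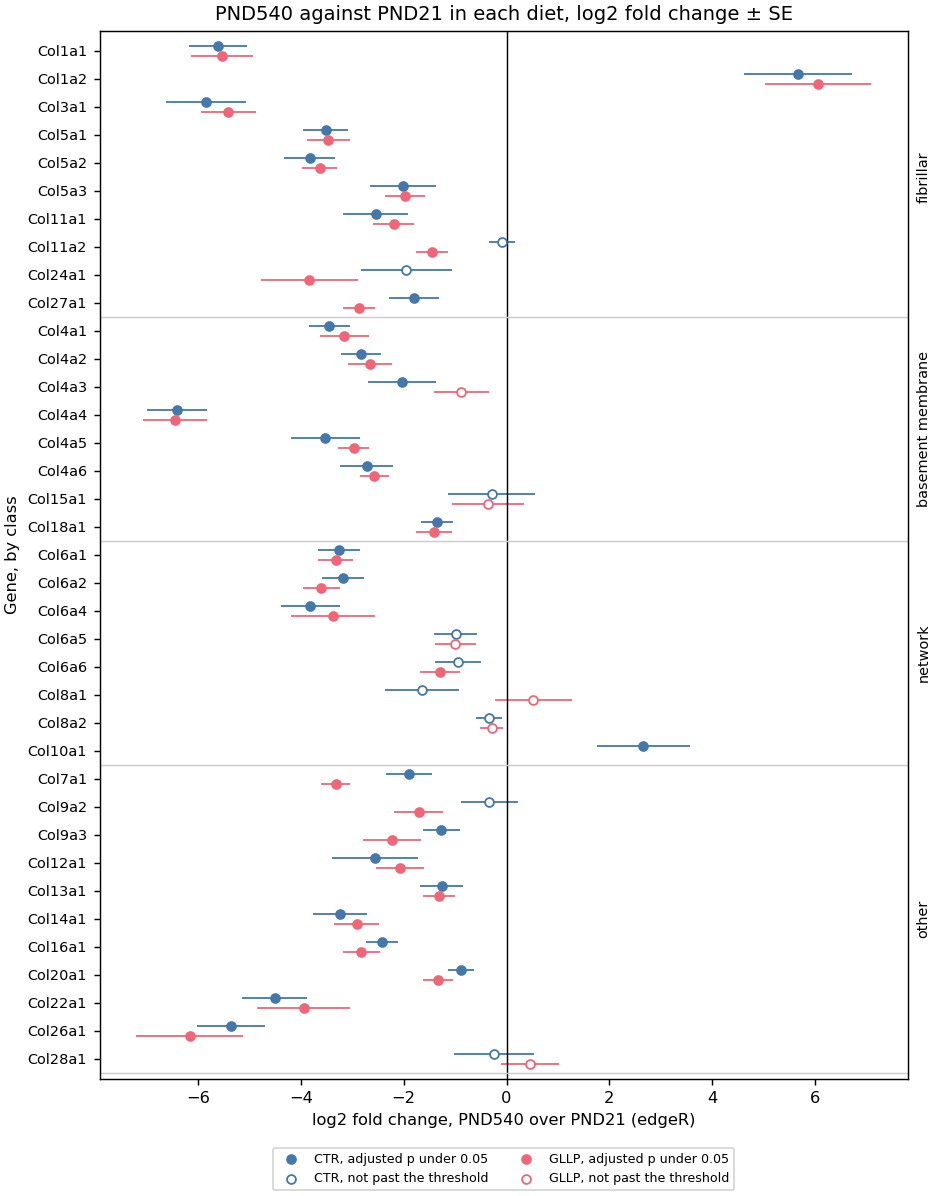
Log2 fold change of PND540 over PND21 with its standard error for each tested member, by class, in CTR and in GLLP. Filled points passed an adjusted p of 0.05: they lie left of 0 for 26 genes in CTR and 29 in GLLP, and right of 0 for Col1a2 on both diets and Col10a1 in CTR.

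Of the 8 basement membrane genes, 7 fell in CTR and 6 in GLLP. Col4a1 and Col4a2 encode the chains of the most common type IV network. Col4a1 was at 397.1, 442.1, 432.2 and 393.3 CPM in CTR and 492.6, 541.4 and 485.8 CPM in GLLP at PND21. It was at 12.6, 53.2, 61.8, 28.4 and 34.3 CPM in CTR and 85.9, 15.0, 56.6 and 70.4 CPM in GLLP at PND540. The fall was 10.9-fold in CTR (log2 fold change -3.45, SE 0.406) and 8.95-fold in GLLP (-3.16, SE 0.475).

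Levels of Col4a2 were 199.8, 214.0, 228.4 and 200.9 CPM in CTR and 254.4, 292.6 and 239.4 CPM in GLLP at PND21. They were 11.6, 41.5, 50.9, 23.3 and 20.1 CPM in CTR and 64.4, 13.6, 38.8 and 50.8 CPM in GLLP at PND540. The same libraries were low for both genes, CTR replicate 1 and GLLP replicate 2, and Col4a2 changed by -2.84 (SE 0.392) and -2.65 (SE 0.423) on the log2 scale.

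The 6 type IV genes lie in 3 pairs whose members point away from each other, so each pair shares the stretch between its starts. In the RefSeq annotation of GRCr8 the start sites of Col4a1 (chr16, 84885597) and Col4a2 (84885520) were 77 bases apart, those of Col4a3 (chr9, 91323990) and Col4a4 (91323577) 413 bases apart, and those of Col4a5 (chrX, 109907359) and Col4a6 (109905944) 1415 bases apart. The stretch between Col4a1 and Col4a2 is shown because both genes fell on both diets and share it, and the 250 bases before Col4a3 because the count ratio of Col4a4 to Col4a3 differed between the days, as that of Col4a2 to Col4a1 also did. Both are RefSeq sequence of GRCr8, plus strand, 5′ to 3′, with GGGCGG on either strand in capitals.
Col4a2 to Col4a1, chr16:84885521-84885596: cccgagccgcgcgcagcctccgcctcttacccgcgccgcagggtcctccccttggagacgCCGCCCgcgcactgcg
upstream of Col4a3, chr9:91323740-91323989: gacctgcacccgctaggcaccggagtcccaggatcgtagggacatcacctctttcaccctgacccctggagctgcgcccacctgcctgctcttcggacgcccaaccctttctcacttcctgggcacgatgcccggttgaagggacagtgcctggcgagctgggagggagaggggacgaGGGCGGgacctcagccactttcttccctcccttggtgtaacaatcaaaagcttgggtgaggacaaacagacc

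The first stretch holds 78.9% G and C and the second 62%, each with 1 GGGCGG. This letter string, read on both strands within 250 bases before the start, was present in 19 of the 33 members with a RefSeq promoter in the table (57.6%) and in 33.5% of 27457 genes. CCAAT was present in 10 members (30.3%, all genes 36.1%) and TATAAA in 3 (9.09%, all genes 14.1%), read on both strands. Matches of different strings may share end letters. These are matches of letters only and are not evidence of binding.

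Col4a3 and Col4a4 encode chains of a tissue-restricted type IV network. Col4a4 was at 58.1, 53.4, 62.7 and 59.1 CPM in CTR and 69.8, 66.7 and 62.2 CPM in GLLP at PND21. Its PND540 values were 0.419, 1.51, 0.954, 0.351 and 0.117 CPM in CTR and 0.623, 0.429, 0.111 and 1.83 CPM in GLLP. No PND540 library held more than 54 counts of it, while each PND21 library had at least 1694. With 85.6-fold in CTR (log2 fold change -6.42, SE 0.587, edgeR adjusted p = 4.47e-05) and 87.4-fold in GLLP (-6.45, SE 0.620, adjusted p = 9.76e-05), this was the largest fitted fall of any tested member on either diet. Col4a3 was at 2.84 to 8.20 CPM at PND21 and 0.235 to 5.28 CPM at PND540. It changed by -2.04 in CTR (SE 0.653, edgeR adjusted p = 0.0398), a call lost in 7 of 9 fits without a library, and by -0.88 in GLLP (adjusted p = 0.24). The count ratio of Col4a4 to Col4a3 was accordingly 7.645 to 21.91 at PND21 and 0.09091 to 1.25 at PND540. As for Col1a2, a change in counting between the tables cannot be told apart from a change in transcript.

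Col4a5, on the X chromosome, encodes the chain that joins those of Col4a3 and Col4a4 or that of Col4a6. Libraries of PND21 had 93.2, 84.6, 95.3 and 83.0 CPM in CTR and 99.2, 104.9 and 62.1 CPM in GLLP. At PND540 the levels were 2.60, 12.6, 12.0, 10.4 and 0.782 CPM in CTR and 12.8, 6.55, 10.3 and 15.8 CPM in GLLP. CTR replicates 1 and 5 were lowest. Col4a5 fell by 3.53 (SE 0.668) in CTR and 2.97 (SE 0.303) in GLLP on the log2 scale, and its pair member Col4a6 by 2.72 and 2.57. Col18a1, whose product carries the endostatin fragment at its end, fell by 1.35 and 1.41. Col18a1 lost its GLLP call without GLLP replicate 4 of PND21 (edgeR adjusted p = 0.0513). Col15a1, its close relative, had log2 fold changes of -0.29 and -0.36 with standard errors of 0.853 and 0.704, too wide to tell a fall from none.

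In the network class 3 of 8 tested genes fell in CTR and 4 of 7 in GLLP. Col6a1 and Col6a2 encode partner chains of type VI collagen, which forms beaded filaments around cells. Col6a1 stood at 375.1, 382.4, 461.0 and 387.0 CPM in CTR and 467.5, 643.4 and 619.7 CPM in GLLP at PND21. By PND540 it stood at 12.9, 44.4, 74.5, 41.5 and 36.2 CPM in CTR and 73.3, 28.4, 51.4 and 78.7 CPM in GLLP. The fall was 9.56-fold in CTR (log2 fold change -3.26, SE 0.410) and 10.0-fold in GLLP (-3.33, SE 0.336).

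For Col6a2 the PND21 levels were 397.0, 430.8, 501.4 and 381.8 CPM in CTR and 489.5, 666.6 and 739.9 CPM in GLLP. The PND540 levels were 12.7, 48.4, 63.7, 42.9 and 66.9 CPM in CTR and 64.9, 26.1, 43.1 and 75.5 CPM in GLLP. Its log2 fold changes of -3.19 (SE 0.411) and -3.60 (SE 0.357) had the size of those of Col6a1. In CTR replicate 5 at PND540 the count ratio of Col6a2 to Col6a1 was 1.847, where the other PND540 libraries had 0.8376 to 1.091. Col6a3, the gene of the third classical chain, had 14.6, 39.1, 26.7, 23.1 and 22.0 CPM in CTR and 27.0, 9.41, 19.5 and 73.8 CPM in GLLP at PND540 and has no PND21 value here.

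Of the alternative type VI chains, Col6a4 fell on both diets, with log2 fold changes of -3.82 (SE 0.575) and -3.37 (SE 0.816). Col6a5 had 122.8, 73.8, 38.4 and 75.3 CPM in CTR and 110.1, 62.5 and 81.6 CPM in GLLP at PND21. At PND540 it had 17.7, 52.7, 61.4, 26.4 and 36.4 CPM in CTR and 58.8, 19.0, 28.3 and 65.0 CPM in GLLP. The days overlapped, and the log2 fold changes of -0.99 (SE 0.410, edgeR adjusted p = 0.0963) and -0.99 (SE 0.408, adjusted p = 0.0892) did not pass. In GLLP Col6a5 was called lower with DESeq2 (adjusted p = 0.0398), with a replicate block (-1.33, edgeR adjusted p = 0.0472) and without GLLP replicate 4 of PND540 (-1.27, edgeR adjusted p = 0.0378). Col6a6 changed by -0.95 (adjusted p = 0.139, edgeR) in CTR and by -1.29 (adjusted p = 0.0298) in GLLP, the latter a call lost in 6 of 7 fits without a library.

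Col8a1 and Col8a2 encode the short chains of type VIII collagen, known from the sheet beneath the corneal endothelium and from vessel walls. Col8a2 had 29.2 to 41.6 CPM over the PND21 libraries and 18.2 to 39.7 CPM over the PND540 libraries, and log2 fold changes of -0.34 (SE 0.245) and -0.29 (SE 0.222). The 95% intervals, -0.82 to 0.14 and -0.72 to 0.15, do not reach the fall of Col6a1. Col8a1 had log2 fold changes of -1.64 (SE 0.713) and 0.52 (SE 0.748), and neither passed. In CTR it was called lower with DESeq2 (adjusted p = 0.0499), with a replicate block (-1.73, edgeR adjusted p = 0.0489) and without CTR replicate 3 of PND540 (-2.52, edgeR adjusted p = 0.0132). In GLLP the value turned to -0.26, uncalled, without GLLP replicate 1 of PND540.

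Col10a1, the collagen of growth cartilage, was the other member that rose in CTR. It had 6, 0, 4 and 0 counts in CTR and 0, 4 and 6 in GLLP at PND21, and 12, 22, 3, 22 and 18 in CTR and 5, 15, 11 and 21 in GLLP at PND540. In CPM the CTR libraries had 0.193, 0, 0.134 and 0 at PND21 and 0.503, 0.737, 0.102, 0.644 and 0.704 at PND540, so the days overlapped. The log2 fold change was 2.66 (SE 0.899, edgeR adjusted p = 0.0482). The call was lost in 3 of the 5 fits without a library in which the gene was tested, and it was not called without the filter, with library size alone or with a replicate block.

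Among the other chains 9 of 11 tested genes fell in CTR and 10 of 11 in GLLP. Col16a1 and Col14a1 encode chains that lie on fibrils and link them to their surroundings. Col16a1 was at 112.7, 124.7, 146.5 and 108.8 CPM in CTR and 149.1, 171.9 and 181.4 CPM in GLLP at PND21, and at 9.93, 20.2, 31.6, 23.9 and 28.9 CPM in CTR and 31.6, 10.8, 18.0 and 34.4 CPM in GLLP at PND540. It fell 5.37-fold in CTR (log2 fold change -2.42, SE 0.305) and 7.11-fold in GLLP (-2.83, SE 0.361).

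Values of Col14a1 were 87.4, 70.0, 128.3 and 74.0 CPM in CTR and 105.0, 131.1 and 107.0 CPM in GLLP at PND21. They were 2.18, 19.2, 9.13, 10.8 and 5.98 CPM in CTR and 16.1, 4.40, 20.1 and 20.3 CPM in GLLP at PND540. The fall was 9.46-fold (-3.24, SE 0.521) and 7.55-fold (-2.92, SE 0.434). CTR replicate 1 and GLLP replicate 2 were again the low libraries of their groups.

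Col7a1 encodes the anchoring fibrils that tie an epithelial basement membrane to the stroma. Its PND21 levels were 58.9, 78.2, 78.9 and 58.6 CPM in CTR and 89.9, 126.7 and 124.8 CPM in GLLP. At PND540 it had 6.37, 13.2, 12.9, 20.0 and 39.4 CPM in CTR and 9.17, 10.1, 8.61 and 17.8 CPM in GLLP. CTR replicate 5, the lowest library of that day for 9 members, was the highest for Col7a1. The gene fell 3.73-fold in CTR (log2 fold change -1.90, SE 0.442, edgeR adjusted p = 0.00925) and 10.0-fold in GLLP (-3.33, SE 0.281, adjusted p = 4.65e-05).

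Col26a1, a short chain described from testis and ovary, was close to the limit of counting. CTR libraries held 14, 13, 16 and 13 counts at PND21, and GLLP libraries 11, 92 and 59. At PND540 a single CTR library held 1 count and a single GLLP library 2, with 0 in the other 7. Scaled for depth, the summed counts were 65.1 times higher at PND21 in CTR (95% counting interval 11.2 to 2.62e+03) and 92.6 times higher in GLLP (25.2 to 771). These intervals cover the counting of summed libraries only and leave out the spread between glands, so they are too narrow. Both falls passed the edgeR test, with adjusted p = 0.000255 and 0.00182. Col22a1, Col12a1, Col13a1, Col9a3 and Col20a1 also fell on both diets, by 0.89 to 4.51 on the log2 scale in CTR and by 1.31 to 3.95 in GLLP. In CTR the calls of Col12a1, Col13a1, Col20a1 and Col9a3 were lost in 7, 5, 5 and 2 of 9 fits without a library. Col9a3 also lost its GLLP call without GLLP replicate 3 of PND21 (edgeR adjusted p = 0.0502). Col9a2 passed in GLLP (-1.71, SE 0.475) and not in CTR (-0.34, SE 0.556), and the difference between diets was not called. The GLLP call was lost in 3 of 7 fits without a library and with a replicate block (edgeR adjusted p = 0.0792). In CTR Col9a2 was called lower without CTR replicate 5 of PND540 (-1.18, edgeR adjusted p = 0.00403) and with a replicate block (-1.16, edgeR adjusted p = 0.0201). The block also gives that library no weight in the fold change, since no PND21 library shares its number. These fits are therefore not separate checks. Col28a1 passed on neither diet. Col9a1, Col19a1, Col23a1 and Col25a1 had at most 22 counts in any library and were not tested for age or diet. Col19a1 was tested for the interaction alone, at -0.58 (SE 1.60, edgeR adjusted p = 0.909).

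The genes that process procollagen and bind collagen were followed in 3 lists. For all 3 lists the shares of all genes to set beside them were 13.2% lower and 17.3% higher in CTR. In GLLP these shares were 17.1% and 19.1%. Of 20 tested genes for modification, folding and export, 5 fell and 1 rose in CTR and 9 fell in GLLP. Serpinh1, the collagen-specific chaperone, was at 203.7 ± 13.8 CPM (SD, n = 4) in CTR at PND21 and 36.3 ± 10.8 CPM (SD, n = 5) at PND540, with log2 fold changes of -2.49 in CTR and -2.58 in GLLP. Plod2, a lysyl hydroxylase whose product shapes cross-links, fell by 2.99 and 2.91. Colgalt2, a collagen galactosyltransferase, fell by 1.86 in CTR. In GLLP it had 4.91 to 10.1 CPM at PND21 and 0.823 to 2.51 CPM at PND540. Fkbp10, a prolyl isomerase and chaperone, fell by 1.85 in CTR and 2.65 in GLLP. P3h4, a member of a lysyl hydroxylation complex, rose in CTR by 0.75 (SE 0.253, edgeR adjusted p = 0.0486) and had 0.40 (adjusted p = 0.129) in GLLP. Of 6 tested genes for propeptide cleavage, 4 fell on each diet. They included the propeptidases Adamts2 (-3.12 and -2.72) and Bmp1 (-2.09 and -2.45) and the enhancer of Bmp1, Pcolce (-1.88 and -2.54). Of 9 receptor and uptake genes, 5 fell in CTR and 4 in GLLP. Among them were the endocytic receptor Mrc2 (-1.46 and -1.72) and the collagen-degrading protease Ctsk (-1.45 and -1.57). Itga11 and Itga10 encode collagen-binding integrin chains. Itga11 fell by 2.11 in CTR and had -0.98 (adjusted p = 0.0685, edgeR) in GLLP. Itga10 fell on both diets, by 0.99 in CTR (edgeR adjusted p = 0.0319) and by 1.97 in GLLP. Each of the 3 lists had a median less far from 0 than the collagen genes in CTR, at -0.40, -1.84 and -0.99.

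The makeup of the collagen counts differed between days. Fibrillar genes held 65.36% to 70.55% of all collagen counts in the PND21 libraries and 18.93% to 37.32% in the PND540 libraries. Col1a1 and Col3a1 alone made up 59.68% to 65.13% and then 5.962% to 27.78%. The drop in the fibrillar share was carried by these 2 genes, since the other fibrillar genes together went from 4.91% to 6.1% to 8.5% to 13.6%. Col1a2, whose PND21 counts give no usable level, is among those others and in the fibrillar medians below. Basement membrane genes went the other way, from 9.372% to 13.33% at PND21 to 17.24% to 24.35% at PND540. Network genes went from 12.82% to 15.42% to 26.8% to 39.96%, and the other chains from 5.509% to 6.157% to 13.81% to 23.88%. For none of the 4 classes did the ranges of the days overlap. These are shares of counts, in which long transcripts weigh more, and each class held genes that fell. They do not rank the classes by how far their genes fell. In CTR the median log2 fold change was -2.28 for fibrillar, -2.78 for basement membrane, -1.32 for network and -1.90 for other chains, and in GLLP it was -3.17, -2.61, -1.29 and -2.23.

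**Figure D3:**
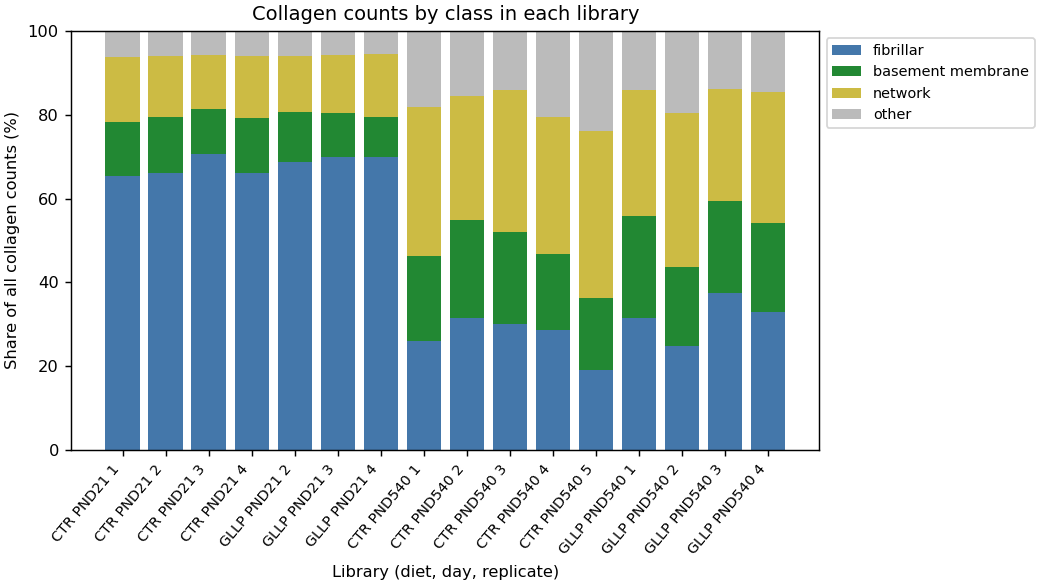
Share of all collagen counts held by each class (stacked bars, percent), one bar per library. The fibrillar share lies above 65% in all 7 PND21 libraries and below 38% in all 9 PND540 libraries, lowest in CTR replicate 5.

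Ratios between chain genes within a library need no scaling between libraries. Each was taken within a collagen type, except that of Col3a1 to Col1a1. Of 10 such ratios, 3 did not overlap between days: Col1a2 to Col1a1 and Col4a4 to Col4a3, given above, and Col4a2 to Col4a1, at 0.484 to 0.5404 at PND21 and 0.5843 to 0.92 at PND540. The ratio of Col3a1 to Col1a1 was 0.7964 to 1.144 at PND21 and 0.8123 to 1.338 in 8 PND540 libraries, with 0.2624 in CTR replicate 5. That library was also low for Col5a2 over Col5a1, at 0.2207 where the other PND540 libraries had 0.7156 to 1.612, and high for Col11a2 over Col11a1, at 108.0 where they had 2.094 to 24.3. Without it the same 3 ratios separated the days.

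**Figure D4:**
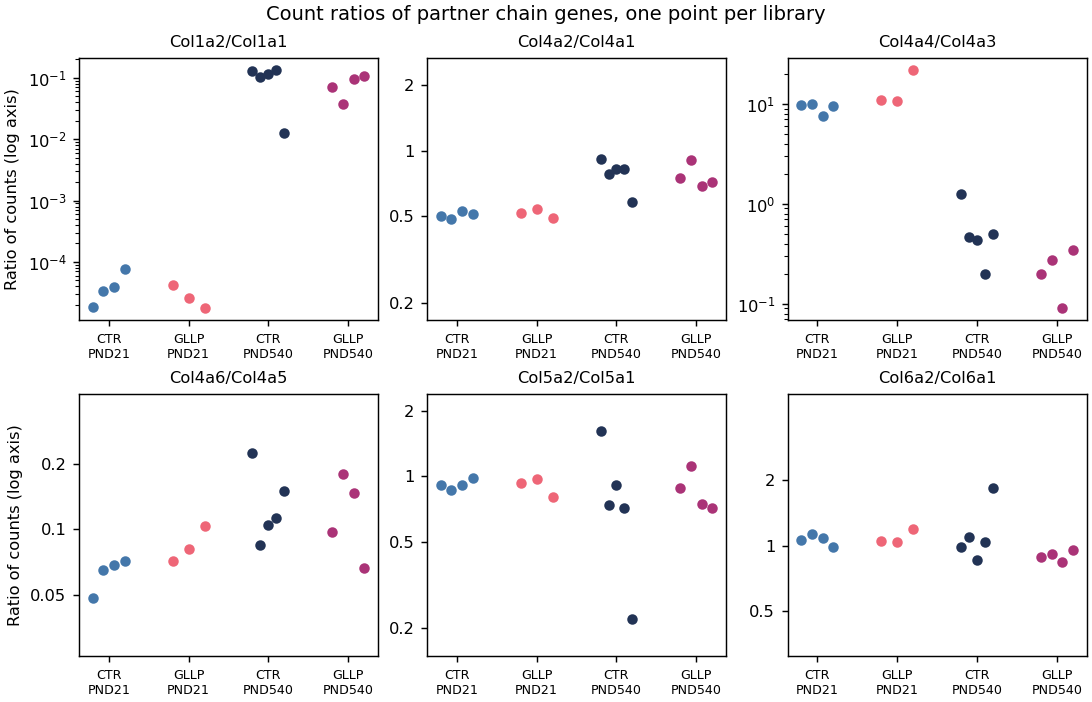
Count ratio of partner chain genes (log axes), one point per library, by diet and day. Col1a2/Col1a1, Col4a2/Col4a1 and Col4a4/Col4a3 separate the days; CTR replicate 5 at PND540 is the low point for Col5a2/Col5a1 and the high point for Col6a2/Col6a1.

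At PND21 most collagen genes had higher values in the offspring of protein-restricted dams, by less than 2-fold in most cases, and none passed the test over all genes. Of 35 tested members, 30 had a positive log2 fold change of GLLP over CTR, with a median of 0.37 where all 14915 genes had 0.00. No member was called higher or lower by the edgeR quasi-likelihood test at an adjusted p of 0.05. Over all genes 1.01% were called higher and 0.107% lower. At an unadjusted p under 0.05 stood 20 members, 19 of them positive, and 2873 of all genes, 1622 of them positive. In 11 members (31.4%) every GLLP library lay above every CTR library, which held for 9.49% of all genes, and in 0 members did every GLLP library lie below, which held for 7.6%. The 11 were Col4a1, Col4a2, Col5a1, Col6a1, Col7a1, Col9a3, Col11a1, Col16a1, Col20a1, Col24a1 and Col27a1. The genes are not independent of each other, since they share the 7 libraries: GLLP replicate 3 was the highest library for 19 of the 35 members and CTR replicate 4 the lowest for 12.

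The calls depended on the tool, the scaling and 1 library. DESeq2 called 12 members higher and 1, Col8a1, lower, beside 671 and 301 of all genes. Without GLLP replicate 2, edgeR called 10 members higher, beside 795 higher and 714 lower genes. With library size alone 11 members were called higher, and that scaling moved the median of all genes to 0.14.

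By class, all 9 tested fibrillar genes and all 11 tested other chains had positive values, with medians of 0.50 and 0.45, against 5 of 8 basement membrane genes (median 0.24) and 5 of 7 network genes (median 0.16). Col24a1, a fibrillar chain known from developing bone and cornea, had the smallest p of the members. It had 1.25, 1.01, 0.937 and 1.40 CPM in CTR and 2.65, 3.01 and 2.04 CPM in GLLP at PND21. The groups did not overlap, and the log2 fold change was 1.16 (SE 0.244, edgeR adjusted p = 0.0664). For Col7a1, whose PND21 values above also separated the groups, it was 0.73 (SE 0.159, adjusted p = 0.0708 by edgeR). Col27a1, a fibrillar chain of cartilage and other matrices, had 9.60, 10.6, 10.2 and 10.8 CPM in CTR and 14.7, 18.6 and 13.3 CPM in GLLP. Again no GLLP library was as low as a CTR library, with a log2 fold change of 0.59 (SE 0.143, edgeR adjusted p = 0.0877).

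The abundant chains lay close together. Col1a1 had a log2 fold change of 0.63 (SE 0.175) and Col3a1 of 0.50 (SE 0.173), but for each the highest CTR library, replicate 3, reached into the GLLP range. Col5a1 had 0.49 (SE 0.135), Col6a1 0.53 (SE 0.133) and Col6a2 0.57 (SE 0.155). The basement membrane pair Col4a1 and Col4a2 had 0.29 (SE 0.0906) and 0.32 (SE 0.0961). Col4a5 had 0.00 (SE 0.164), with a 95% interval of -0.32 to 0.32, and its lowest PND21 library was GLLP replicate 4. Col8a1 was the one member with a negative value at an unadjusted p under 0.05, at -1.12 (SE 0.364, edgeR adjusted p = 0.157). Its libraries had 3.66, 2.55, 4.65 and 1.83 CPM in CTR and 1.94, 0.985 and 1.47 CPM in GLLP, which overlap. Col26a1 had a log2 fold change of 1.78 (SE 0.516, edgeR adjusted p = 0.127), carried by GLLP replicates 3 and 4, while GLLP replicate 2, at 0.394 CPM, was below every CTR library.

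**Figure D5:**
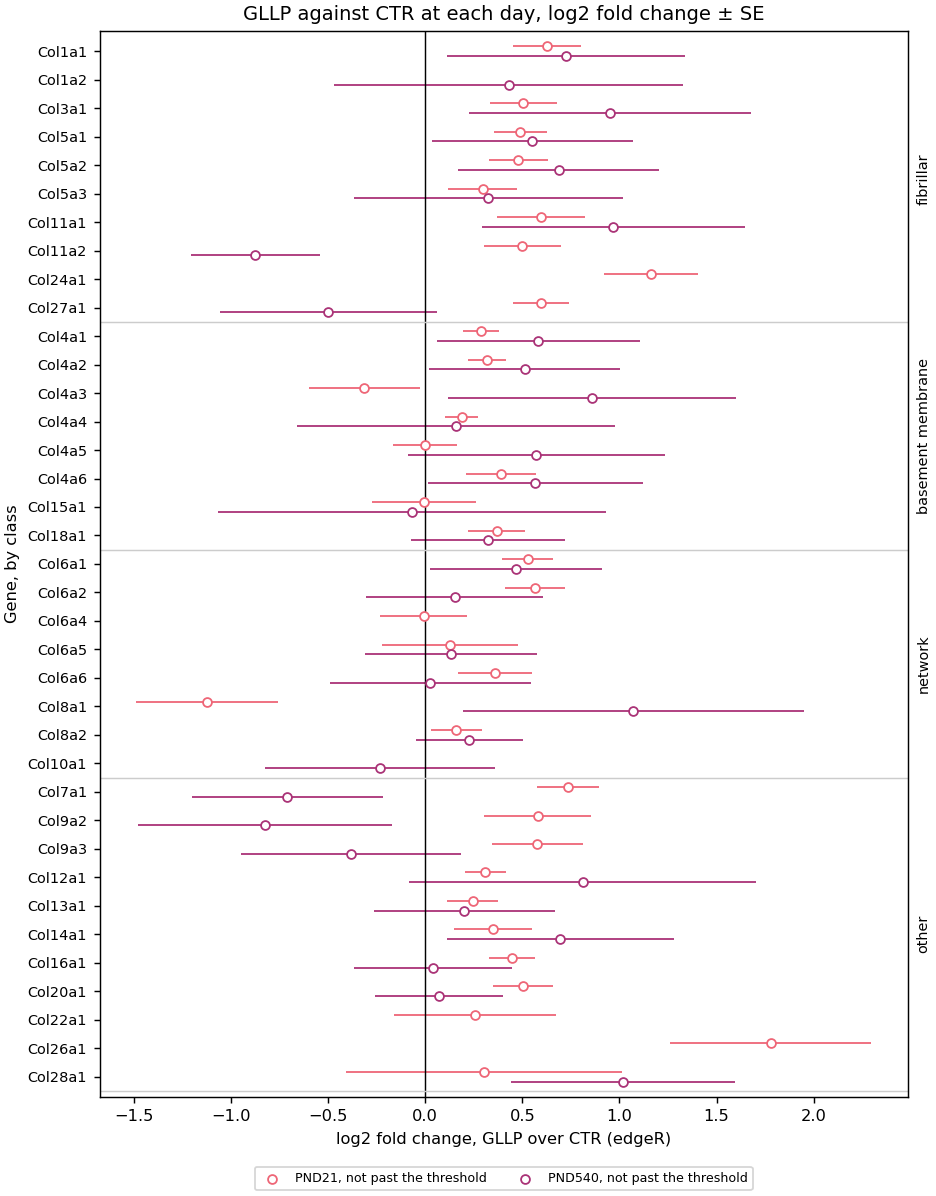
Log2 fold change of GLLP over CTR with its standard error for each tested member, by class, at PND21 and at PND540. No point passed an adjusted p of 0.05; at PND21 30 of 35 lie right of 0 and at PND540 26 of 33, with wider errors.

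Of the processing genes, 1 of 6 for propeptide cleavage and 1 of 9 receptors were called higher at PND21, beside 1.01% of all genes. Mrc2 was at 60.6 ± 5.72 CPM (SD, n = 4) in CTR and 96.2 ± 13.0 CPM (SD, n = 3) in GLLP, which is 0.67 as log2 fold change (SE 0.115, edgeR adjusted p = 0.0336). Bmp1 was at 60.0 ± 1.63 CPM (SD, n = 4) and 86.7 ± 11.7 CPM (SD, n = 3), or 0.54 (SE 0.101, edgeR adjusted p = 0.0469). Each call was lost in 6 of 7 fits without a library. Both were also lost in the joint fit of all libraries and with a replicate block (edgeR adjusted p = 0.279 for Mrc2 and 0.353 for Bmp1 with the block). None of 20 modification genes passed, although 15 were positive, with Serpinh1 at 0.58 (edgeR adjusted p = 0.0581) and P4ha3, a prolyl hydroxylase subunit, at 1.12 (adjusted p = 0.0679).

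Markers of skeletal muscle moved with the diet in the same libraries. All 8 of them rose in GLLP at PND21, beside 1.01% of all genes. The summed level of these markers was 12.95 to 19.88 CPM in CTR, with Mb at 0 in at least 1 library, and 388.7 to 681.1 CPM in GLLP. Their part in the collagen values was not tested. Every GLLP library had a higher muscle sum than every CTR library, so diet and muscle content cannot be told apart here. None of 7 fibroblast markers passed, with sums of 745.3 to 1040 CPM in CTR and 927.2 to 1122 CPM in GLLP, and none of 6 smooth muscle markers did. Of the 7 fibroblast markers 6 were positive (median 0.23). So were 4 of 4 macrophage markers (median 0.51) and 4 of 4 basal epithelial markers (median 0.77). In each of these lists 3 markers had an unadjusted p under 0.05, beside 2873 of all 14915 genes. All 4 tested endothelial markers were positive too (median 0.26). Negative values were held by 3 of 4 luminal, 3 of 4 adipocyte and 4 of 4 dividing cell markers. Of 4 urothelial markers only Upk1b was tested, at 2.37 (SE 0.574, edgeR adjusted p = 0.0895). For Upk1b every GLLP library lay above every CTR library, which held for 9.49% of all genes. For 2 of 4 prostate secretion genes every GLLP library lay below every CTR library, which held for 7.6% of all genes. The part of these cell types in the PND21 collagen values was not tested.

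At PND540 no collagen gene separated the diets. Of 33 tested members, edgeR called 0 higher and 0 lower, as it called 0% of all 14767 genes in either direction. DESeq2 called 0 members and, over all genes, 1 higher and 1 lower. At an unadjusted p under 0.05 stood 1 member and 123 genes. In no member did the groups fail to overlap, where every GLLP library was above every CTR library for 0.183% of all genes and below for 0.21%. Positive values were seen in 26 members, with a median log2 fold change of 0.33 that ranged from 0.12 without GLLP replicate 4 to 0.68 without CTR replicate 2. The spread between libraries of a group was wide: CTR replicate 1 was the lowest library for 17 of 33 members, CTR replicate 5 the lowest for 9 and the highest for 4, and GLLP replicate 4 the highest for 18. Col1a1 had a log2 fold change of 0.72 with a standard error of 0.611 and a 95% interval of -0.47 to 1.92, which leaves room for the PND21 value and for none.

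Col11a2 had the smallest p. The gene encodes a chain of the type XI fibrils and is counted here as fibrillar. Its CTR libraries were at 10.2, 8.82, 7.42, 12.2 and 16.9 CPM and its GLLP libraries at 4.91, 7.23, 4.25 and 8.06 CPM. GLLP replicate 4 lay above CTR replicate 3, and the log2 fold change was -0.88 (SE 0.332, edgeR adjusted p = 0.914). Col28a1, a chain related to type VI and known from nerve, had 0.0838, 0.201, 0.477, 0.322 and 0.156 CPM in CTR and 0.293, 0.286, 0.554 and 0.914 CPM in GLLP. At this low level it had 1.02 (SE 0.578, edgeR adjusted p = 0.914). Col7a1, with the values given above, had -0.71 (SE 0.491, edgeR adjusted p = 0.914), and its highest library was CTR replicate 5. Col6a3 had 0.36 (SE 0.516, adjusted p = 0.914 by edgeR). No processing or receptor gene was called. The smallest p of the modification list belonged to the prolyl hydroxylase P3h3 (-0.49, SE 0.360) and Serpinh1 (0.49, SE 0.366). In the cleavage list these were the propeptidases Adamts2 (0.72, SE 0.592) and Adamts3 (-0.52, SE 0.587), and among receptors Itga10 (-0.83, SE 0.390) and Itga11 (0.88, SE 0.484).

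Whether the diet effect differed between the days was tested with an interaction term over all 16 libraries. Of 38 tested members, edgeR called 0 higher and 0 lower, beside 0% and 0.0917% of 14178 genes, and DESeq2 called 0 members. The median difference in log2 fold change, PND540 less PND21, was 0.03. An unadjusted p under 0.05 was reached by 2 members and by 733 of the 14178 genes, a like share, so nothing is read from it. Col11a2 had a difference of -1.35 (SE 0.408, edgeR adjusted p = 0.738): at PND21 it had 11.0, 14.3, 11.1 and 10.8 CPM in CTR and 15.8, 21.8 and 12.3 CPM in GLLP, a log2 fold change of 0.50, against -0.88 at PND540. Col7a1 had -1.42 (SE 0.584, edgeR adjusted p = 0.738), from 0.73 at PND21 and -0.71 at PND540. Col8a1 had 2.18 (SE 1.12, edgeR adjusted p = 0.738), from -1.12 and 1.07. Its PND540 libraries had 0.168, 1.11, 2.86, 0.614 and 0.274 CPM in CTR and 4.77, 0.286, 1.59 and 1.79 CPM in GLLP. For Col1a1 and Col3a1 the differences were 0.09 (SE 0.776) and 0.44 (SE 0.919), with 95% intervals of -1.43 to 1.61 and -1.36 to 2.24 that would hold a change of more than 2-fold either way.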

How the data were processed

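Gene-level read counts, not normalized, were deposited by the authors as 2 tables with 28688 entries for PND21 and 24218 for PND540, all whole numbers. The submitters' processing notes name STAR, Rnor_6.0 and edgeR 3.34.0 but not their roles. For the counting tool, the annotation and strandedness nothing is given in the sources used. The PND21 table holds 25 names that are dates or repeats, which were set apart.

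Counts were analysed with edgeR 4.0.16 in R 4.3.3 (filterByExpr, TMM, robust quasi-likelihood fit and test across all genes, Benjamini-Hochberg, threshold 0.05). Diet effects were fitted within each day's table, age effects and the interaction over the 19709 shared names. Standard errors were derived from the F statistic, and 95% intervals use 1.96 standard errors. With few libraries such intervals are narrower than the F test implies. For Col4a4 at PND21 the interval was 0.016 to 0.358, although the unadjusted edgeR p was 0.0598. DESeq2 1.42.0, RLE size factors, library size alone, no filter, a filter at 1 CPM, a replicate block, a joint fit and leaving out each library were alternatives. Scripts were tested on simulated data.

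Members, classes and lists were chosen with earlier results of these data known. Values per library are printed for the 3 members of each class with the highest mean CPM, members called for diet or interaction, the 3 largest age changes in each direction, and the 3 smallest p where none was called. For the pathway lists these were every gene called for diet, the 3 largest age changes in each direction and, where none was called, up to 2 with the smallest p. Other genes were named after their values were seen. Promoter sequences are from RefSeq (GRCr8), with 33 of 42 members matched by symbol. Figures were drawn with matplotlib 3.10.9.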

Additional observations from a re-analysis of the deposited data

Results flagged for a closer look

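In 63 sets of a printed member in a group of 4 or 5 libraries, 8 held a library set apart from its group by a gap that is large for the group's range. Chance alone gives such a gap in about 1 in 20 sets of independent, normally spread values. The sets here share libraries and some hold counts near 0, so their number is not set against that rate. At PND21 CTR replicate 3 was high for Col3a1, at 2784 CPM where the other CTR libraries had 1826 to 1961, and for Col6a1, at 461.0 CPM where they had 375.1 to 387.0. CTR replicate 2 was high for Col11a2, at 14.3 CPM against 10.8 to 11.1. At PND540 GLLP replicate 2 was low for Col3a1, at 17.9 CPM against 81.4 to 93.4 in the other GLLP libraries. GLLP replicate 4 was high for Col7a1, at 17.8 CPM against 8.61 to 10.1. CTR replicate 3 was high for Col24a1, at 1.02 CPM against 0 to 0.293. For Col26a1 the gap comes from 1 count in CTR replicate 4 (0.0293 CPM) and 2 counts in GLLP replicate 4 (0.0677 CPM), where every other library of the group had 0.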

How the results depend on the processing

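No called value changed direction in any alternative. For diet at PND21, the count of members called higher went from 0 to 11 with library size alone and 12 with DESeq2, which also called 1 lower. Leaving out each library gave 0 to 10 higher, the 10 without GLLP replicate 2. Over all genes, 150 higher and 16 lower calls became 625 and 25 with library size alone, 671 and 301 with DESeq2, 40 and 0 in the joint fit, 173 and 26 with no filter, 795 and 714 without GLLP replicate 2, and 60 to 131 and 2 to 16 without another library. For age in CTR, the 2 higher members became 1 with library size alone, no filter or the 1 CPM filter, and 0 to 2 without a library: 0 without PND540 replicate 1, 2 or 4 and 1 without PND21 replicate 2, 3 or 4 or PND540 replicate 3 or 5. Without PND540 replicate 1, 2, 3 or 4 Col1a2 fell under the count filter. Without PND540 replicate 5, 3490 genes were higher and 3084 lower in CTR, beside 2336 and 1781. For the interaction, 0 and 13 genes became 2 and 44 with DESeq2 and 0 to 1 and 7 to 15 without a library. The median of members in CTR ranged from -2.91 (without PND540 replicate 3) to -1.97. The cause of these shifts was not tested. Calls of lower members stayed at 20 to 27 in CTR and 26 to 31 in GLLP over all settings. Of the single-gene values, 2751 kept direction and side of the threshold, 69 lost a call, 44 gained one and 137 uncalled ones changed sign. The wide errors at PND540 and single-digit counts (Col1a2, Col10a1, Col26a1) limit what can be shown.

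The labels do not say whether the replicate numbers pair the samples. Same-numbered libraries correlated at -0.146 to 0.286 in their deviations from the group means. With so few libraries per group these values cannot exclude a pairing. A replicate block gives no weight in the fold change to a library whose number is missing from the other group. For diet these were CTR replicate 1 at PND21 and CTR replicate 5 at PND540. For age they were CTR replicate 5 and GLLP replicate 1 of PND540. With a replicate block, 0 members were called for diet at either day or for the interaction, with 27 higher and 0 lower genes at PND21. For age in CTR the block gave 1 higher and 27 lower members (3174 and 2838 genes) and in GLLP 1 higher and 28 lower.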
